A study of Caenorhabditis elegans with 2 samples.

Results

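The aminoacyl-tRNA synthetase genes examined here were the 32 protein-coding genes, of 19973 in the Ensembl WBcel235 annotation of Caenorhabditis elegans, whose symbol has the form of a letter, "ars" and a digit (aars-1, vars-1 and so on). Chromatin immunoprecipitation with sequencing (ChIP-seq) had been used to map LIN-35, the worm retinoblastoma-like protein, in whole first-stage (L1) larvae of mixed sex and unknown age. The 2 biological replicates formed 1 group, so the design holds no untreated, mutant or time-course samples to set the larvae against. Both came from strain YL398, which carries the unc119(ed3)III allele and the transgene vrIs55, in which a LIN-35 fusion with GFP and FLAG stands under the ges-1 promoter, with the lin-35 3′ UTR and unc-119(+). The ges-1 promoter is active in the gut, so the fusion protein came from a gut promoter while the chromatin came from all tissues. The antibody is given as lin-35 in one label and the target as eGFP-lin-35 in another, and whether LIN-35 from the endogenous gene was recovered too was not tested. A strong peak in few nuclei and a weak one in many cannot be told apart in whole larvae.

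Aminoacyl-tRNA synthetases join each amino acid to its transfer RNA, the step that sets which amino acid a codon is read as. They fall into 2 structural classes with different active-site folds, class I and class II. Most animals have separate genes for the cytosolic and the mitochondrial enzyme of an amino acid, although a single gene sometimes supplies both compartments. In C. elegans gene names the suffix 1 usually marks the cytosolic and the suffix 2 the mitochondrial enzyme. LIN-35 acts in the DREAM complex with the E2F-DP proteins and the DNA-binding protein LIN-54, and is best known as a repressor of cell cycle and germline genes.

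The peak list called the reproducible set below was made from both replicates with the irreproducible discovery rate filter. Not every peak in it had an overlapping peak in each replicate list: 99.8% did in replicate 1 and 92.1% in replicate 2. In this set 16 of the 32 synthetase genes bore a promoter peak (50%, 95% exact interval 31.9 to 68.1). A promoter peak was a summit from 500 bp upstream to 200 bp downstream of any annotated start of the gene. Over all protein-coding genes 3959 of 19973 (19.8%) bore one. No test was made of this difference, because genes are not replicates and the genes were chosen with results of these data known. The signal below is the enrichment the authors' caller gave each peak, and it can be compared only within a list. There were 6712 peaks in the reproducible set, of median signal 98.5 (45.9 to 4903), and the replicate 1 list held 30000 peaks, of median signal 13.8 (6.21 to 4595). The replicate 2 list held 26341, of median signal 3.63 (2.00 to 386). The read depth of both libraries is unknown.

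The 16 bound genes, in order of signal, were vars-1, sars-2, aars-2, mars-1, ears-2, tars-1, kars-1, nars-1, aars-1, hars-1, dars-1, pars-2, sars-1, fars-3, yars-2 and cars-1. The median signal of their strongest promoter peaks was 138, close to the 141 of all bound genes, and 11 of the 16 peaks were among the 3356 strongest of the reproducible set, as were those of 2536 of the 3959 bound genes. The 3 leading genes had signals of 528 to 1504, and the next in order, mars-1, had 259. The remaining 16 genes (dars-2, ears-1, fars-1, fars-2, gars-1, iars-1, iars-2, lars-1, lars-2, nars-2, pars-1, qars-1, rars-1, rars-2, wars-1 and yars-1) had no reproducible promoter peak.

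**Figure D1:**
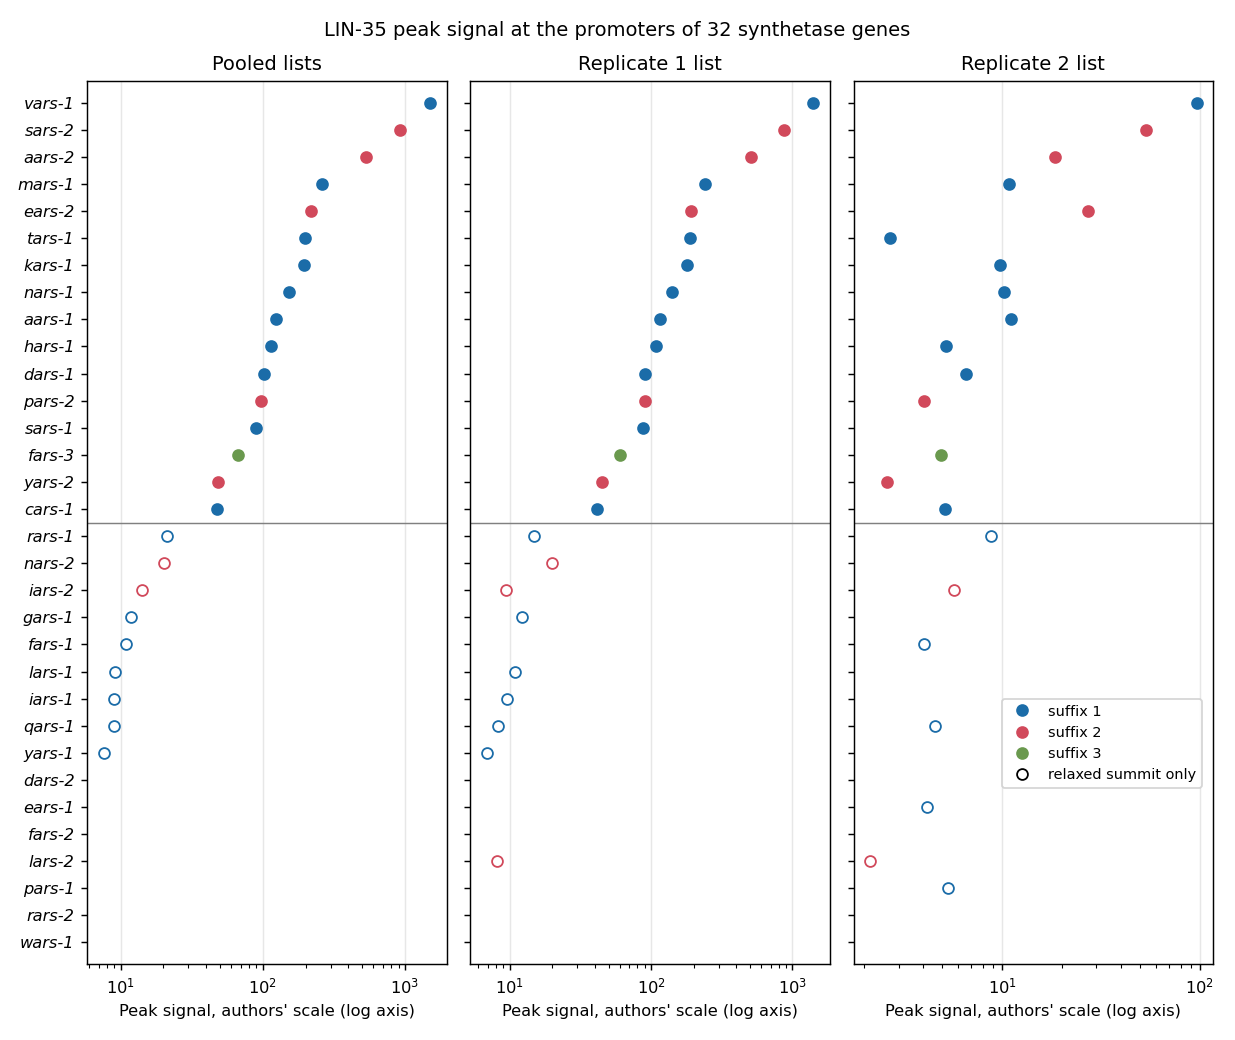
Peak signal on the authors' scale (log axes, a separate scale in each panel) at the 32 synthetase genes in the pooled lists, the replicate 1 list and the replicate 2 list, coloured by the gene's suffix. Filled points are the 16 genes with a reproducible promoter peak (48.0 to 1504 in the left panel) and the overlapping replicate peaks; open points are the strongest summits that the relaxed lists hold in the promoters of the other 16 genes, which reach 21.3 in the left panel.

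Among the class I enzymes the valine gene vars-1 had the strongest peak of the family. Its peak on chromosome V, 8031188 to 8031542 in the ce11 build, had its summit 42 bp upstream of the start. The summit lay between vars-1 and oma-2, which is on the same strand, and the peak reached into vars-1. Its signal was 1504 in the reproducible set, rank 119 of 6712. The overlapping peak had a signal of 1408 and rank 121 in the replicate 1 list, and a signal of 96.3 and rank 130 in the replicate 2 list, with summits 2 bp apart in the latter. It was the family's highest peak in all 3 lists.

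The sequences around 4 of the summits are printed here because they carry the short words counted further on. They are windows of up to 75 bp either side of the summit, cut back where an annotated exon began, read on the strand of the gene from the ce11 genome. Capitals mark the word GCGC, the CHR words TTCGAA and TTTGAA that LIN-54 is known to bind, and the gut GATA word TGATAA.
vars-1 (chrV:8031294-8031410, plus strand): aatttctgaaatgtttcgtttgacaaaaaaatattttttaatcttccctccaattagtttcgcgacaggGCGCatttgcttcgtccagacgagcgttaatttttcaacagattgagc
sars-2 (chrIV:4357406-4357556, plus strand): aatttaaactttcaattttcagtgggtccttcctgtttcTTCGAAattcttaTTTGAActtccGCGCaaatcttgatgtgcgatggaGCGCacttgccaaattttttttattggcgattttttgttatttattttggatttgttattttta
ears-2 (chrIV:390469-390559, minus strand): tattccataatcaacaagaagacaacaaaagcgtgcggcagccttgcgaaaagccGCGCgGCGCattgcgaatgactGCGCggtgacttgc
hars-1 (chrIV:10858739-10858889, plus strand): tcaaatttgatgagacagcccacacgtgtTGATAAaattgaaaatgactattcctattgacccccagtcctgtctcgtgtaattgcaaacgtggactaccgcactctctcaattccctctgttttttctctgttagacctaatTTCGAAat
The vars-1 window holds GCGC a few bases from the summit and neither a CHR nor a GATA word. The sars-2 window holds both CHR words and GCGC at 2 places. The ears-2 window is the whole stretch between that gene and its divergent neighbour. The hars-1 window is the single one of the family with the GATA word.

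The other class I genes with a peak were mars-1, ears-2, yars-2 and cars-1. The methionine gene mars-1 had its peak at 11635668 to 11635861 on chromosome IV, 271 bp upstream of the start, with a signal of 259 (rank 1133) in the reproducible set, 242 in replicate 1 and 10.9 in replicate 2. The glutamate gene ears-2, which RefSeq names as the mitochondrial glutamyl enzyme, had its peak at 390382 to 390591 on chromosome IV, 25 bp upstream, with a signal of 219 (rank 1393), 190 in replicate 1 and 27.2 in replicate 2. The 2 genes thus changed places between the libraries, with mars-1 ahead in replicate 1 and ears-2 ahead in replicate 2.

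The tyrosine gene yars-2 and the cysteine gene cars-1 were at the low end of the family. The yars-2 peak on chromosome IV, 4712431 to 4712774, had a signal of 48.3 (rank 6437), 45.3 in replicate 1 and 2.63 in replicate 2. Its summit lay 21 bp downstream of the start in an untranslated exon of yars-2, the single member summit downstream of its nearest start. The cars-1 peak on chromosome I, 2628720 to 2629063, had its summit 315 bp upstream and a signal of 48.0 (rank 6475), 41.1 in replicate 1 and 5.17 in replicate 2. Both lie just above the lowest signal in the reproducible set, 45.9.

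Of the class II enzymes, both serine and both alanine genes bore a peak. The sars-2 peak on chromosome IV, 4357319 to 4357627, was the second strongest of the family, with its summit 155 bp upstream and a signal of 916 (rank 286), 865 in replicate 1 and 53.7 in replicate 2. The sars-1 peak, also on chromosome IV at 10003366 to 10003709, had a signal of 90.2 (rank 3656) and 87.9 in replicate 1, with its summit 188 bp upstream. No peak of the replicate 2 list overlapped it, and sars-1 was the single bound member for which this was so. The 2 serine genes therefore differed about as much within replicate 1 as in the reproducible set, and only sars-2 was present in both libraries.

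The aars-2 peak on chromosome I, 3982783 to 3983062, had its summit 258 bp upstream and a signal of 528 (rank 548), 510 in replicate 1 and 18.5 in replicate 2. The aars-1 peak on chromosome II, 11464493 to 11464836, had its summit 168 bp upstream and a signal of 123 (rank 2657), 114.8 in replicate 1 and 11.2 in replicate 2. The alanine pair goes against the usual suffix rule: RefSeq names the aars-1 product as mitochondrial and the aars-2 product as cytoplasmic.

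Threonine, lysine and asparagine followed. The tars-1 peak on chromosome II, 11694569 to 11694754, had a signal of 199.5 (rank 1539) and 188 in replicate 1, but 2.71 (rank 18892 of 26341) in replicate 2. Its summit, 371 bp upstream of the nearest tars-1 start, lay in an intron shared by an upstream start of tars-1 and by kel-1, and a second reproducible summit in the window had a signal of 61.7. The strongest replicate 2 summit in the tars-1 window was another one, 24 bp upstream of a start, with a signal of 7.05 (rank 5687), and it is the one that keeps tars-1 called with replicate 2 alone. The kars-1 peak on chromosome II, 7072643 to 7072803, had its summit 354 bp upstream and a signal of 196 (rank 1581), 180 in replicate 1 and 9.79 in replicate 2. The nars-1 peak on chromosome I, 7090197 to 7090540, had its summit 307 bp upstream and a signal of 153 (rank 2071), 141 in replicate 1 and 10.3 in replicate 2. With cars-1, these were the 4 genes whose summits lay farthest upstream.

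The remaining class II genes had weaker peaks. The histidine gene hars-1 had its peak on chromosome IV, 10858642 to 10858985, 143 bp upstream, with a signal of 114 (rank 2873), 108 in replicate 1 and 5.24 in replicate 2. The aspartate gene dars-1 had its peak on chromosome III, 9491152 to 9491495, 109 bp upstream, with a signal of 102 (rank 3244), 91.1 in replicate 1 and 6.60 in replicate 2. The proline gene pars-2, with a RefSeq product named as putatively mitochondrial, had its peak on chromosome I, 12486749 to 12487092, 23 bp upstream, with a signal of 96.7 (rank 3406), 90.1 in replicate 1 and 4.05 in replicate 2. The gene for the beta subunit of the phenylalanine enzyme, fars-3, had its peak on chromosome II, 8464566 to 8464909, 110 bp upstream, with a signal of 66.6 (rank 4867), 60.1 in replicate 1 and 4.90 in replicate 2. The phenylalanine genes fars-1 and fars-2 had no reproducible promoter peak, so of that trio only the gene for the beta subunit bore one.

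All 16 reproducible peaks overlapped a peak in the replicate 1 list by at least 1 bp, with summits at most 19 bp apart. In the replicate 2 list 15 of the 16 had a partner, 6 of them with a summit within 20 bp, and the largest shift was 230 bp, at fars-3. Over the whole reproducible set 99.8% of the peaks had a partner in replicate 1 and 92.1% in replicate 2. Over the 15 peaks with both partners the replicate signals had a Spearman rho of 0.796 and a Pearson r on the log10 scale of 0.858. This is a description across peaks of 1 pair of libraries, chosen because both held a peak. Among equal numbers of the strongest peaks in each library, 6712, the replicate 1 list gave 16 bound members (19.8% of all genes were bound) and the replicate 2 list gave 11 (17.8% of all genes). The replicate 2 list lacked cars-1, fars-3, hars-1, pars-2, sars-1 and yars-2 and added rars-1. Replicate 1 alone gave the same 16 genes as the reproducible set, and its signals at them were close to those of the pooled data.

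**Figure D2:**
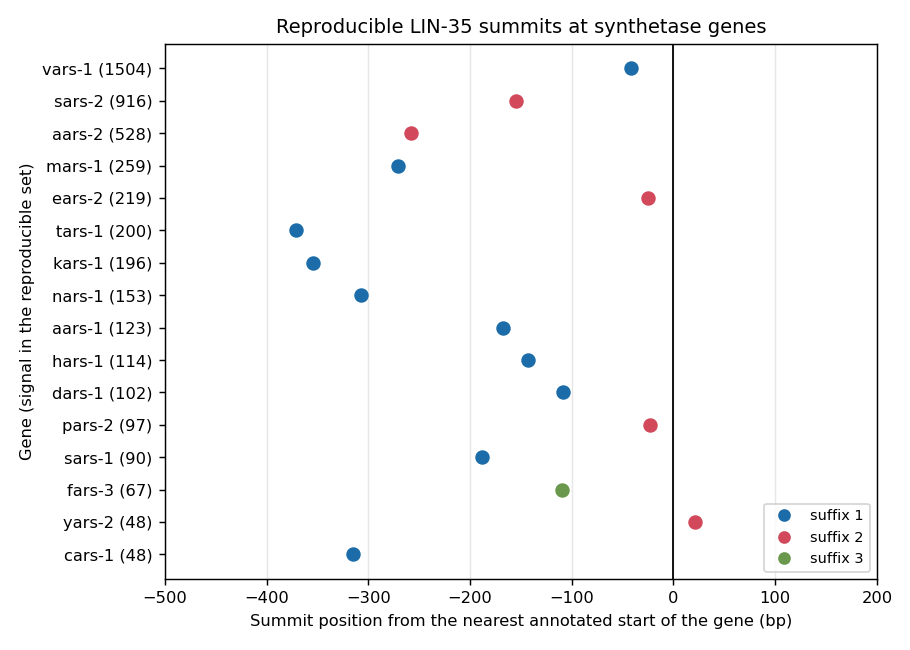
Position of the strongest reproducible summit of the 16 bound genes relative to the nearest annotated start (bp, negative is upstream), coloured by suffix and ordered by signal from vars-1 (1504) at the top to cars-1 (48.0). All but yars-2, at 21 bp downstream, lie upstream, and 4 of the 5 genes with the suffix 2 sit within 155 bp of the start.

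The summit lay upstream of the start in 15 of the 16 genes, and in 3628 of the 3959 bound genes of the whole annotation. It lay between genes in 14 of the 16, a count not given here for all bound genes. The median distance was 161.5 bp against 163 bp over all bound genes. The median was 229.5 bp for the 10 bound genes with the suffix 1 (42 to 371 bp upstream) and 25 bp for the 5 with the suffix 2 (258 bp upstream to 21 bp downstream), and the 2 ranges overlap. Peak widths ran from 161 to 355 bp with a median of 344 bp.

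The rule for the genes also contrasts the suffixes, taken as cytosolic and mitochondrial. Of the 20 genes with the suffix 1, 10 bore a peak (50%, exact interval 27.2 to 72.8), and of the 11 with the suffix 2, 5 did (45.5%, 16.8 to 76.6). The difference was 4.55 percentage points with a 95% Newcombe interval from −28.7 to 36.0, which covers counting error only and leaves room for a large difference in either direction. The value moved both ways with the processing, from −18.6 points when a summit counted only for the start closest to it within 2 kb to 29.5 points with the window widened to 1000 bp upstream. The median signal was 138 for the bound genes with the suffix 1 and 219 for those with the suffix 2, with wholly overlapping ranges (48.0 to 1504 and 48.3 to 916). Where RefSeq names the compartment in the product, 7 of 10 cytoplasmic and 3 of 4 mitochondrial enzymes were bound; the mitochondrial ones were aars-1, ears-2 and pars-2 with a peak and rars-2 without.

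For 11 amino acids the family holds a gene of each suffix. Both were bound for 2 of them (alanine and serine), the gene with the suffix 1 alone for 2 (aspartate and asparagine), the gene with the suffix 2 alone for 3 (glutamate, proline and tyrosine) and neither for 4 (phenylalanine, isoleucine, leucine and arginine). Of the 9 amino acids with no gene of the suffix 2 in the family, 6 had a bound gene in it. These were cysteine, histidine, lysine, methionine, threonine and valine, and glycine, glutamine and tryptophan had no bound gene. That group of amino acids rests on gene symbols alone. RefSeq gives the name mars-2 to a gene whose symbol falls outside the naming rule, so methionine is in the group by symbol only. A search of RefSeq product names gave 4 synthetase genes outside the naming rule, this one among them, and they are named further on. The others were not matched to amino acids here, so more of the group may have a second gene under another symbol. By structural class, 5 of 15 class I genes were bound (33.3%, 11.8 to 61.6) and 11 of 17 class II genes (64.7%, 38.3 to 85.8), with overlapping intervals. Among the genes with the suffix 1, 3 of the 9 whose human counterparts belong to the multisynthetase complex were bound (dars-1, kars-1 and mars-1) and 7 of the 11 others. By chromosome, 4 of 9 members on I were bound (25.7% of all protein-coding genes there), 4 of 5 on II (19.1%), 1 of 6 on III (28.5%), 6 of 8 on IV (18.2%) and 1 of 4 on V (14.7%), and X holds no member. No test was made of these contrasts.

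The 16 genes without a reproducible promoter peak were not all without signal. In the pooled relaxed list, which keeps weak peaks as input for the reproducibility filter, 25 of the 32 genes had a promoter summit, against 38.3% of all genes. In the replicate 1 list 25 did, against 38.2%, and in the replicate 2 list 22, against 35.6%. The 9 genes added by the pooled list had signals from 7.59 to 21.3, where the list's lowest value was 7.31. The arginine gene rars-1 had 21.3 and the asparagine gene nars-2 had 20.2. The isoleucine gene iars-2 followed with 14.1, the glycine gene gars-1 with 11.8 and the phenylalanine gene fars-1 with 10.9. The 4 weakest were lars-1 (9.07), iars-1 (9.04), qars-1 (9.02) and yars-1 (7.59), for leucine, isoleucine, glutamine and tyrosine. By the construction of the reproducible set all of these were below the signal of every bound member. Of the 9 summits, 5 lay downstream of the start, whereas 1 of 16 did among the bound genes. No such count is given here for all genes with only a relaxed summit, so this cannot be called particular to the family. For dars-2, fars-2, rars-2 and wars-1 no list held a summit in the window; an absent summit in a thresholded list does not show that LIN-35 was absent.

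Some of these genes had a reproducible summit just outside the window. The nearest lay 536 bp upstream of qars-1 (signal 97.3), 589 bp upstream of iars-1 (86.0), 635 bp downstream of the first of 2 gars-1 starts and 715 bp upstream of the other (76.9), 905 bp upstream of fars-1 (260) and 972 bp upstream of rars-1 (1016). With the window widened to 1000 bp upstream these 5 genes were called as well, which gave 21 members against 24.1% of all genes. The summit at rars-1 is the promoter peak of rpb-8, a gene for an RNA polymerase subunit that lies directly upstream on the same strand. At qars-1, iars-1 and fars-1 the summit had the signal of the divergent neighbour's own promoter peak, at Y41E3.7 (97.3), pges-2 (86.0) and rbm-5 (260). These genes were thus called on peaks that also lie in a neighbour's promoter window. At gars-1 the upstream neighbour, T10F2.2, had no promoter peak. At the other end, the nearest reproducible summit to rars-2 was 27895 bp away, to yars-1 9813 bp and to wars-1 9441 bp.

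Calls were also counted by the protein-coding gene upstream. Of 18 synthetase genes with a divergent neighbour there, 12 bore a peak, against 27.3% of the 9070 protein-coding genes so placed. Of 14 with a neighbour on the same strand, 4 did, against 13.6% of 10898. In 7 of the 14 the gap was at most 150 bp, a limit chosen after the values were seen, and none of the 7 bore a reproducible promoter peak (8.53% of 1595 genes so placed did). These were rars-1 (65 bp from rpb-8), lars-2 (99 bp from ZK524.4), yars-1 (109 bp from Y105E8A.20), dars-2 (113 bp from F10C2.5), nars-2 (119 bp from tin-10), rars-2 (120 bp from C29H12.2) and gars-1 (131 bp from T10F2.2). In 3 of the 7 the upstream gene itself had a promoter peak: rpb-8 with a signal of 1016, Y105E8A.20 with 133 and ZK524.4 with 110. Of the other 7 same-strand genes, with gaps of 196 to 1063 bp, 4 were bound (vars-1, yars-2, fars-3 and pars-2). Whether such close genes are transcribed together with the neighbour was not tested.

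**Figure D3:**
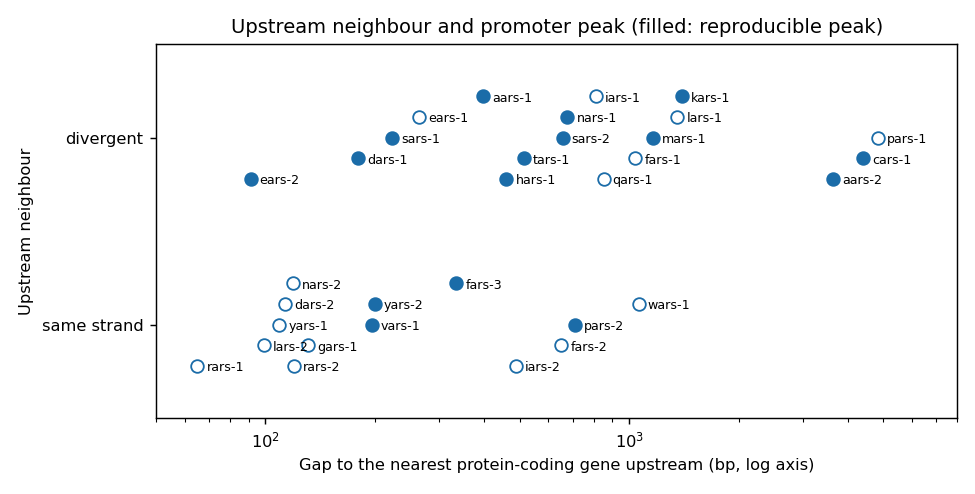
Gap in bp (log axis) between each synthetase gene and the nearest protein-coding gene upstream, by the orientation of that neighbour; filled points bear a reproducible promoter peak. On the same strand, the 7 genes with gaps of 65 to 131 bp are all open and 4 of the 7 with wider gaps are filled. The limit of 150 bp between these was chosen after the values were seen, and 8.53% of all 1595 genes within it bore a peak. Among divergent pairs 12 of 18 are filled, at gaps from 91 to 4409 bp.

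A summit between 2 divergent genes can belong to both. Of the 16 member summits, 7 also lay in the promoter window of another protein-coding gene, and in 6 of these the other gene was the divergent upstream neighbour. The share of all promoter summits with a second gene in reach is not given here, so the count cannot be called particular to the family. The summit was 168 bp from aars-1 and 229 bp from rga-1, and 143 bp from hars-1 and 318 bp from T11G6.2. It lay nearer to the neighbour at dars-1, whose summit was 72 bp from ctr-9 (a gene for a subunit of the PAF transcription elongation complex) and 109 bp from dars-1, and at sars-1, 36 bp from C47E12.2 and 188 bp from sars-1. At ears-2 the summit was 67 bp from uncp-18 and 25 bp from ears-2, and at nars-1 it was 371 bp from nduf-6 and 307 bp from nars-1. The tars-1 summit was also 164 bp upstream of a start of kel-1. For these 7 genes the peak alone cannot be assigned to 1 gene of the pair. The other 9, among them vars-1, sars-2, aars-2 and mars-1, had no other protein-coding start in reach.

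Short words were counted on both strands in windows of 151 bp centred on the summits. An E2F word was counted as TTCCCGC, as its variant TTCGCGC, as its variant TTGCCGC or as its variant TTGGCGC. Such a word was found in 1 of the 16 member windows, that of aars-2 with 2 matches, and in 12.7% of all 6712 windows. A CHR word, TTCGAA or TTTGAA, was found in 6 of 16 (37.5%: aars-1, aars-2, dars-1, hars-1, kars-1 and sars-2) and in 34.6% of all. The GATA word TGATAA was found in 1 of 16 (hars-1) and in 23.3% of all. In the 3394 windows at promoter peaks of any protein-coding gene the shares were 15.1% (E2F), 38.95% (CHR) and 19.4% (GATA). Only aars-2 held both an E2F and a CHR word. In the windows of sars-2 the CHR matches were centred 33.5 and 20.5 bp from the summit on the side away from the gene, as in the sequence printed above, while in aars-1 and hars-1 the match was 70.5 bp away.

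The word GCGC, which was counted after the values were seen, was found in 10 of the 16 windows (62.5%), all but those of aars-1, fars-3, hars-1, mars-1, nars-1 and sars-1, and in 43.2% of all windows. It was in 56.2% of the windows of the 3356 strongest peaks and 30.2% of the other windows. In the family it was in 7 of the 11 windows among those strongest peaks and in 3 of the other 5, so it was present in vars-1, sars-2 and aars-2 and also in yars-2 and cars-1. The median GC content of the member windows was 39.4% (30.5 to 51.0) and that of all windows 41.7%. The centre of the mars-1 summit, which holds none of these words, is shown for contrast with the windows above, on the minus strand.
mars-1 (chrIV:11635728-11635788): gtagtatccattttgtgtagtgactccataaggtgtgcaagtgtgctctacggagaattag
A word match is a description of the letters in the window and not a binding site.

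Other genes of protein synthesis were counted the same way. Of 38 translation factor genes 28 bore a peak (73.7%, exact interval 56.9 to 86.6), with a median signal of 245; eef-2, the ribosome translocation factor, had 2363, eif-3.C, a subunit of an initiation complex, had 2262, and eif-2alpha had none. Of 70 mitochondrial ribosomal protein genes 41 did (58.6%, 46.2 to 70.2), with a median signal of 143 and summits a median of 159 bp upstream, led by mrpl-55 (1478) and mrps-16 (1442), and mrpl-10 had none. Of 78 cytosolic ribosomal protein genes 69 did (88.5%, 79.2 to 94.6), with a median signal of 475 and summits a median of 288 bp upstream. The strongest of these were at rpl-3 (4900) and rpl-35 (3748), and rpl-16 had none. The synthetase genes, at 50%, stood below these 3 lists in share, and no test of the differences was made.

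Of 17 genes for tRNA maturation, tRNA export and the response to uncharged tRNA, 7 bore a peak (41.2%, 18.4 to 67.1). The 2 strongest were gcn-1 (1588, summit 266 bp upstream) and gcn-2 (1435, 223 bp upstream). GCN-2 is the kinase that is activated by uncharged tRNA, and GCN-1 is known to act with it. Both were close in signal to vars-1, the strongest synthetase gene, and elpc-2, for a subunit of the Elongator tRNA-modifying complex, had none. RefSeq describes 4 further genes as synthetases whose symbols fall outside the naming rule. Of these, Y105E8A.20, which RefSeq calls mars-2, had a signal of 133 with the summit 20 bp upstream, and glp-4, known for its temperature-sensitive germline mutant, had 128 with the summit 458 bp upstream. K03B4.1 and prx-10 had no promoter peak.

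**Figure D4:**
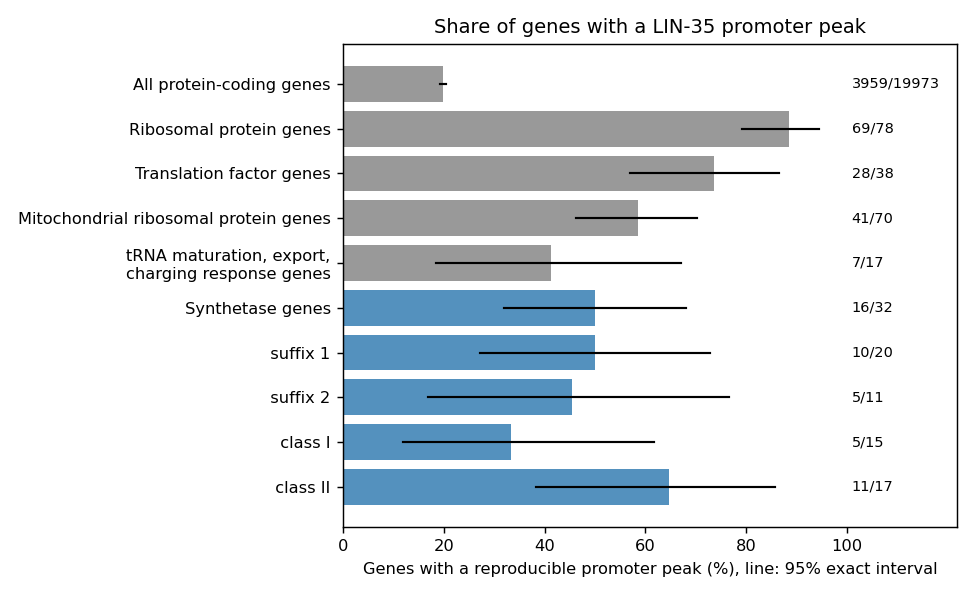
Share of genes with a reproducible LIN-35 promoter peak in percent (bars), with 95% exact binomial intervals (lines) and the counts at the right, for all protein-coding genes, 4 lists of protein synthesis genes and the synthetase genes with their subgroups. The synthetase genes stand at 50%, all genes at 19.8% and the ribosomal protein genes at 88.5%, and the lines of the suffix and class subgroups overlap.

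Which synthetase genes were called depended on the window and on the peak list. A window of 250 bp either side of a start gave 11 members, against 14.2% of all genes, and lost aars-2, cars-1, kars-1, mars-1 and nars-1, whose summits lie farther upstream. Counting a summit only for the start closest to it within 2 kb gave 17, against 22.6%, losing dars-1 and sars-1 and adding fars-2, gars-1 and nars-2. The 3356 strongest peaks gave 11, against 12.7%, without cars-1, fars-3, pars-2, sars-1 and yars-2. Reproducible peaks with 50% reciprocal overlap in both replicate lists gave 12, against 15.0%, without fars-3, kars-1, sars-1 and vars-1; the last is the family's strongest. The genes aars-1, ears-2, sars-2 and tars-1 were called under each of the settings tried, and dars-2, ears-1, iars-2, lars-1, lars-2, pars-1, rars-2, wars-1 and yars-1 under none. The tars-1 call did not always rest on its strongest summit, which lay 371 bp from its nearest tars-1 start and 164 bp from kel-1. Counting only the most upstream start of each gene called the same 16 members, among 3669 of all genes. Under that setting, with 250 bp either side, or with the nearest start, the summit of signal 61.7, 108 bp upstream, kept tars-1.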

How the data were processed

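LIN-35 ChIP-seq of 2 biological replicates of L1 larvae, per the labels, was analysed from the peak lists of the ce11 build; the lists of the ce10 build were not used here. Per the notes with the files, the authors deposited a relaxed list per replicate, a relaxed list of the pooled replicates, and a filtered list made from these by the irreproducible discovery rate, each called against a control alignment that was not analysed here. The deposited signal value of a peak is the authors' enrichment score, used only within a list, and the deposited offset gives the summit. The sources used here do not name the aligner, the caller, any version or the rate cut. Read depth is unknown, so intervals cover counting error over genes only.

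Summits were assigned to every protein-coding gene of the Ensembl annotation (WBcel235, the sequence of ce11) with a start in reach, and the strongest counted. Exact binomial intervals (95%) used scipy 1.17.1, with pandas 2.3.3 and numpy 2.4.6. Product names and genome sequence came from RefSeq's WBcel235 files. The assignment and the overlaps were tested on simulated summits. The members and lists were chosen with earlier results of these data known. Every member is named, and of each other list the 2 strongest and the first by name without a peak. The E2F, CHR and GATA words were part of the plan, and GCGC and the 150 bp gap were added. With 1 group, no test between conditions was possible.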

Additional observations from a re-analysis of the deposited data

How the results depend on the processing

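The count of bound members ran from 11 to 21 over the settings, against 16. The count with the suffix 1 was 6 with 250 bp either side of a start and 15 with 1000 bp upstream, against 10. The count with the suffix 2 was 3 with the 3356 strongest peaks and 7 with the nearest start within 2 kb, against 5, and leaving out a replicate gave 3 to 5. The difference in share, 4.55 points, reversed to −6.36 with 250 bp either side, −18.6 with the nearest start within 2 kb, −10.5 with 50% reciprocal overlap and −5 with the compartment in the RefSeq product. It rose to 29.5 with 1000 bp upstream and to 12.7 both with the 3356 strongest peaks and without replicate 1. The median signal, recomputed in the pooled data only because replicate lists have other scales, ran from 102 to 199.5, and the summits stayed upstream, at medians of 109 to 258 bp. In windows of 51 bp the E2F, CHR and GATA words were found at 0, 1 and 0 member summits, and in windows of 251 bp at 1, 7 and 4. Over all windows the shares were 5.20%, 9.18% and 9.42% at 51 bp and 15.6%, 52.5% and 32.4% at 251 bp. The CHR share of the members was thus 37.5% against 34.6% at 151 bp and 43.8% against 52.5% at 251 bp. In the windows at promoter peaks of any gene the CHR share was 9.52% at 51 bp, 38.95% at 151 bp and 57.2% at 251 bp. Against those the members were lower at each window length. No paired analysis was possible because there is 1 group. Signal without read counts, and 32 genes, limit the precision.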
